A study of Homo sapiens with 60 samples.

Results

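The 36 genes described here encode heat shock proteins, their regulators and helpers, and the 8 subunits of the cytosolic chaperonin, out of 60675 genes in the count table. They were taken by symbol from a fixed list, and each symbol matched 1 row. HT29 cells, an established human colorectal adenocarcinoma line, were exposed for 24 h to a vehicle of 0.1% DMSO, to wortmannin or LY294002 at 10 µM each, or to 1 of 6 hot-water herb extracts at 500, 100 or 20 µg/mL, and messenger RNA was sequenced from 60 libraries. The extracts were of Poria Cocos, Atractylodis Rhizoma, Glycyrrhizae Radix (licorice root), Panax Ginseng, Angelicae Gigantis Radix and Paeoniae Radix, called below by their first word except for Ginseng. All groups share the cell line, serum-containing medium and exposure time, and no untreated group was analysed. Whether the inhibitor and extract groups held DMSO is not recorded in the sample annotations used here. In comparisons with vehicle a difference in solvent therefore cannot be told apart from the treatment. The 3 Paeoniae groups have 2 libraries each and the other 18 groups have 3. The labels give the vehicle as 0.1% DMSO, whereas the series' design text gives 2%, and they do not say whether the replicates were separate cultures, so the p-values below measure the spread between these libraries, which may be technical. The first digit of the sample codes sets the vehicle and both inhibitors apart from Poria and Atractylodis, from Glycyrrhizae and Ginseng, and from Angelicae and Paeoniae. What the digit stands for is not stated, and in an extract-to-vehicle comparison it cannot be told apart from the extract, whereas comparisons of doses of 1 extract lie within 1 digit. The titles of all 60 samples, vehicle included, name the same batch, BatchA. Among the sample codes, only those of vehicle carry a letter A before the digit, and its meaning is not stated either. In every comparison with vehicle, inhibitors included, that letter cannot be told apart from the treatment.

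Heat shock proteins are chaperones: they bind unfolded stretches of other proteins and help them to fold, to be moved or to be degraded. HSP70 proteins take up clients delivered by J-domain proteins, and nucleotide exchange factors of the HSP110 and BAG families release them. HSP90 then completes the folding of kinases and steroid receptors with the help of co-chaperones, and the ring-shaped chaperonin TRiC folds actin and tubulin. Under proteotoxic stress the transcription factor HSF1 binds inverted repeats of a short heat shock element in the promoters of many of these genes and raises their transcription. Wortmannin and LY294002 inhibit phosphatidylinositol 3-kinases (PI3K), and both can also inhibit other kinases.

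Promoter stretches are shown for the letters of the heat shock element. The genes were listed by symbol and not by these letters. Since many of them are known targets of HSF1, a higher share of matches follows in part from the choice of genes. Windows of 300 bases, from 250 before to 50 after an annotated start (RefSeq, GRCh38.p14), were given for 32 of the 36 genes, as 47 windows; FKBP4, CCT6A, ST13 and HSF1 had none. The search used the 8 letters GAANNTTC or TTCNNGAA, each of which reads the same on both strands, and, on both strands, a 13-letter form made of TTCNNGAA followed by NNTTC, which contains both shorter forms. The 13 letters occurred in windows of 8 genes, and these follow after the pair HSPA1A and HSPA1B, the stress-inducible HSP70 genes, which hold an 8-letter match. Each stretch is 30 bases, written 5′ to 3′ on the gene's strand, with the letters covered by a match in capitals.
HSPA1A (chr6:31815426-31815455, plus strand): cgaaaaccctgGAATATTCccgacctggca
HSPA1B (chr6:31827622-31827651, plus strand): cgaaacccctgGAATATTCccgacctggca
HSPA8 (chr11:123062171-123062200, minus strand): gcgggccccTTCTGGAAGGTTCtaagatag
HSP90AA1 (chr14:102087112-102087141, minus strand): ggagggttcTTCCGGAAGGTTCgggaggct
HSP90AB1 (chr6:44247822-44247851, plus strand): ctgagattgTTCTGGAAGCTTCtggattct
HSPD1 (chr2:197500060-197500089, minus strand): cattTTCTGGAAAGTTCTGGAAccgagcga
SERPINH1 (chr11:75562168-75562197, plus strand): tttccaactTTCCAGAAGTTTCtcgggacg
CHORDC1 (chr11:90223079-90223108, minus strand): aaaaTTCGCGAAGGTTCCTGAAacgcaacg
DNAJA1 (chr9:33025267-33025296, plus strand): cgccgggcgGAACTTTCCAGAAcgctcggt
DNAJB6 (chr7:157336864-157336893, plus strand): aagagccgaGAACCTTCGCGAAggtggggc

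In the HSPA1A and HSPA1B stretches the matched letters are the same. Over all windows of the set, 44.7% held an 8-letter match and 17.0% the 13 letters, whereas the shares over all 34943 RefSeq windows given were 13.5% and 0.489%. None of the 7 TRiC genes with a window held the 13 letters, and 3 of them held the 8 letters. A match describes these letters alone and does not show that a factor bound there.

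The libraries held 20431980 to 35477712 expected counts. Values are CPM, counts scaled to library size with edgeR's factors, and a gene is said to have risen or fallen where edgeR's quasi-likelihood test gave a Benjamini-Hochberg adjusted p below 0.05 over 16767 genes. Of the 36 genes 35 passed the filter on low counts, and HSPB8, a small heat shock protein, had 0 to 5 counts per library and was not tested. All 9 colon epithelial markers were detected in every library, from medians of 4.82 CPM for CDX2 and 7.62 CPM for CEACAM5 to 6531 CPM for KRT8. Of 9 markers of fibroblasts, leukocytes and endothelium, COL1A2, DCN, CD3E and CDH5 had a median of 0 and PTPRC and VWF of 0.0322 and 0.0351 CPM, while COL1A1, PECAM1 and CD14 were detected in every library, with medians of 1.27, 1.67 and 3.50 CPM. The 36 genes held 1.10% to 1.54% of all counts. Mitochondrially encoded genes held 6.97% to 11.4% of counts, with vehicle replicate 3 at the upper end. Judged by the median chi-square of counts between replicates, replicates 2 and 3 were the closest pair in all 15 extract groups of 3, and replicates 1 and 2 in vehicle and both inhibitor groups, so that replicate 1 stood apart in the former and replicate 3 in the latter; what sets them apart is not stated in the labels.

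Across the 21 groups the set stood lowest with LY294002, which gave the lowest group mean for 27 of the 35 tested genes, and highest with Poria at 500 µg/mL, which gave the highest mean for 24. For neither number was the share over all tested genes counted. The ratio of the highest to the lowest group mean ran from 1.06 for DNAJB6 to 1.99 for FKBP4, with a median of 1.37, and the median coefficient of variation between replicates of a group ran from 1.98% for HSP90AA1 to 8.62% for HSPB1. The steadiest genes, DNAJB6 and ST13, are a J-domain protein and an HSP70 co-chaperone.

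**Figure D1:**
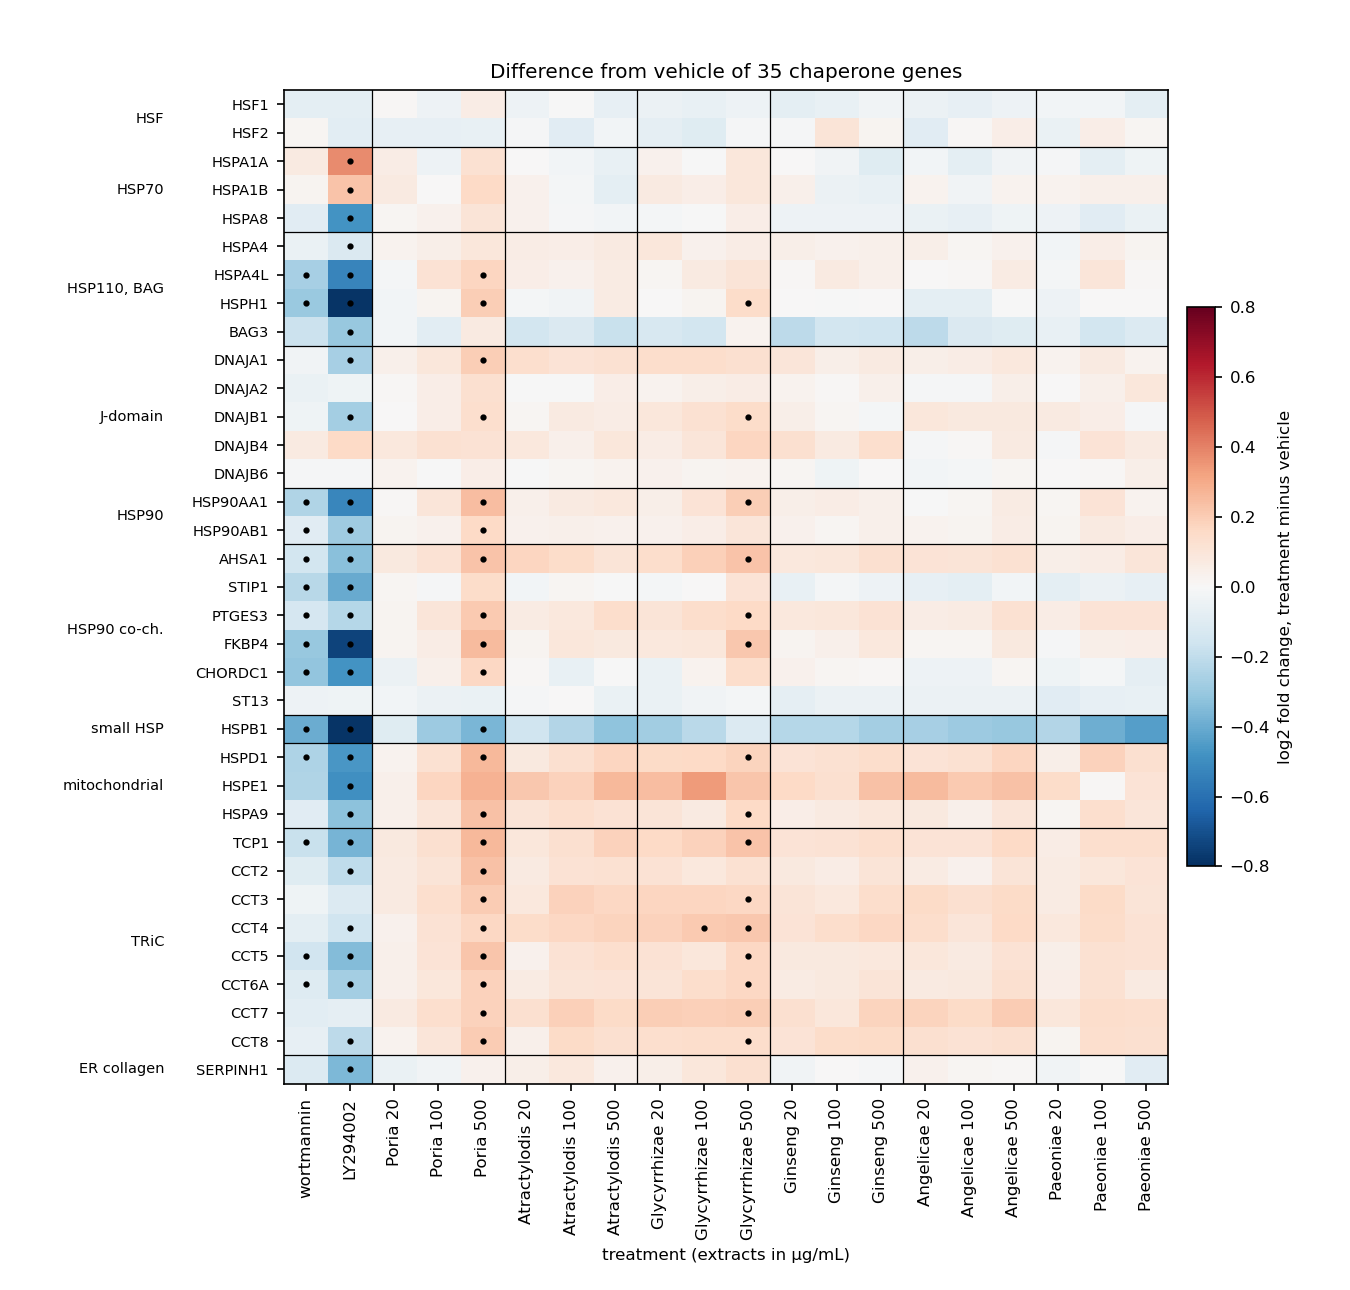
Log2 fold change of each of the 35 tested genes (rows, grouped by role) in each of the 20 treated groups against vehicle (columns), as colour, with a dot where edgeR's adjusted p was below 0.05. The LY294002 column is mostly blue with HSPA1A and HSPA1B red, and the Poria 500 column is mostly red with HSPB1 blue.

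LY294002 lowered most of the chaperone genes and raised the 2 stress-inducible HSP70 genes. Of the 35 tested genes 25 fell and 2 rose, against 39.2% of all tested genes that changed in either direction (20.5% fell and 18.7% rose). HSPH1, the HSP110 exchange factor (ENSG00000120694, chr13:31134974-31162388, minus strand), stood at 499, 494 and 463 CPM in vehicle replicates 1 to 3 and at 291, 285 and 269 CPM with LY294002. HSPH1 fell (log2 fold change -0.79 ± 0.042 (SE, n = 3 against 3), edgeR adjusted p = 5.95e-20). FKBP4, an immunophilin co-chaperone of HSP90 (ENSG00000004478, chr12:2794953-2805423, plus strand), stood at 223, 226 and 219 CPM in vehicle and at 133, 128 and 139 CPM with LY294002. It fell by a similar size (log2 fold change -0.74 ± 0.037 (SE, n = 3 against 3), edgeR adjusted p = 5.51e-21), as did the small heat shock protein HSPB1 (ENSG00000106211, chr7:76302544-76304295, plus strand), which went from 149, 163 and 189.8 CPM to 99.9, 106 and 85.3 CPM (log2 fold change -0.78 ± 0.10 (SE, n = 3 against 3), edgeR adjusted p = 1.28e-08). HSPA4L, a second HSP110 relative, fell from 90.6, 92.3 and 90.2 CPM to 63.5, 60.8 and 64.8 CPM (log2 fold change -0.53 ± 0.052 (SE, n = 3 against 3), edgeR adjusted p = 1.01e-11). HSP90AA1, the inducible cytosolic HSP90 (ENSG00000080824, chr14:102080738-102139699, minus strand), fell from 1164, 1169 and 1117 CPM to 814, 816 and 776 CPM (log2 fold change -0.52 ± 0.035 (SE, n = 3 against 3), edgeR adjusted p = 7.49e-17). These 5 genes had the largest changes among called genes without overlap. That every LY294002 library lay below every vehicle library thus follows from the rule for naming them.

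The inducible HSP70 genes went the other way. HSPA1A (ENSG00000204389, chr6:31815464-31817946, plus strand) stood at 267, 276 and 279 CPM in vehicle and at 368, 374 and 328 CPM with LY294002, and rose (log2 fold change 0.38 ± 0.054 (SE, n = 3 against 3), edgeR adjusted p = 1.59e-07). HSPA1B (ENSG00000204388, chr6:31827735-31830255, plus strand) stood at 282, 274 and 262 CPM and 298, 317 and 345 CPM, and rose (log2 fold change 0.23 ± 0.065 (SE, n = 3 against 3), edgeR adjusted p = 0.00394), but not without LY294002 replicate 3, where its log2 fold change was 0.17. The 2 genes are near-identical copies and their counts were whole in no library, so the split of reads between them is uncertain: replicate 3 was the lowest LY294002 library for HSPA1A and the highest for HSPA1B. Their summed level does not depend on that split. It was 549, 550.3 and 542 CPM in vehicle and 666, 691 and 673 CPM with LY294002, and the sum rose by 0.31 on the log2 scale (edgeR adjusted p = 2.09e-06). HSPA8, the constitutive HSP70 of the cytosol, fell from 2746, 2811 and 2828 CPM to 2085, 2111 and 1815 CPM (log2 fold change -0.48 ± 0.047 (SE, n = 3 against 3), edgeR adjusted p = 1.22e-11). The summed HSPA1A and HSPA1B count was thus 19.6 ± 0.427% of the HSPA8 count in vehicle and 33.9 ± 2.76% with LY294002 (SD, n = 3, not corrected for gene length). In the other 19 groups the mean of that percentage lay between 18.9% and 21.6%.

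**Figure D2:**
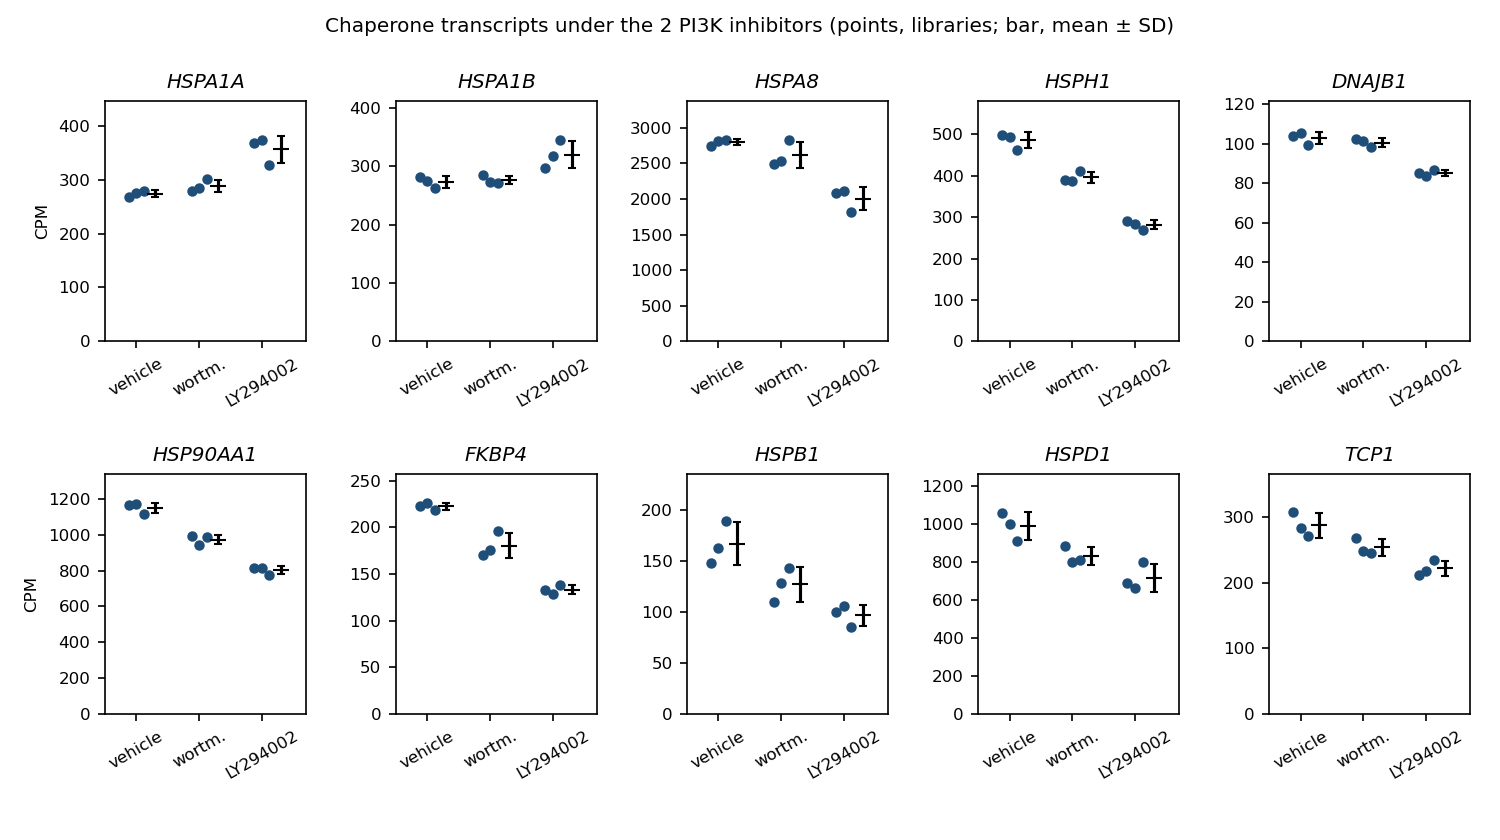
CPM (y axes, from 0) of 10 chaperone genes in the 3 vehicle, 3 wortmannin and 3 LY294002 libraries (points), with mean ± SD (bars). HSPA1A and HSPA1B are highest with LY294002, and the other 8 genes are lowest there, with wortmannin means in between for each of these 8.

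By role, both transcription factors were among the 8 genes that did not pass the test under LY294002. HSF1, the main stress regulator, had a mean of 99.3 ± 3.51 CPM against 105 ± 5.26 CPM in vehicle (SD, n = 3; log2 fold change -0.079 ± 0.053 (SE, n = 3 against 3), edgeR adjusted p = 0.246). All 4 genes of the HSP110 and BAG group fell, among them BAG3, which links HSP70 to autophagy, by 0.30 on the log2 scale (edgeR adjusted p = 0.0124). The BAG3 call was lost without vehicle replicate 3 or without LY294002 replicate 3, where its value was -0.27 and -0.18. Without replicate 3 of both groups, chosen after seeing the data, 27 genes of the set passed, 26 lower and 1 higher, and BAG3 and HSPA1B lost their calls, at -0.14 and 0.15. Among the J-domain genes 2 fell, DNAJB1 by 0.27 and DNAJA1 by 0.27, whereas DNAJA2, DNAJB4 and DNAJB6 had log2 fold changes of -0.032, 0.16 and -0.0072 and did not pass. DNAJB1, the J-domain partner of inducible HSP70, went from 104, 105 and 99.1 CPM to 85.1, 83.4 and 86.7 CPM opposite in direction to HSPA1A. The genes listed as HSP90 co-chaperones include ST13, an HSP70 co-chaperone, and the 5 others all fell. Beside FKBP4 these were CHORDC1 by 0.48, the HSP70-HSP90 adaptor STIP1 by 0.40, the ATPase activator AHSA1 by 0.33 and PTGES3, the p23 co-chaperone, by 0.23. ST13 did not pass. HSP90AB1, the constitutive cytosolic HSP90, fell by 0.28.

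All 3 mitochondrial chaperones fell under LY294002. HSPD1 (HSP60), the chaperonin of the matrix, went from 1057, 1000.0 and 911 CPM to 689.8, 663 and 799.8 CPM (log2 fold change -0.46 ± 0.054 (SE, n = 3 against 3), edgeR adjusted p = 1.20e-09). Its lid HSPE1 (HSP10) went from 227, 203 and 232 CPM to 145, 142 and 184 CPM (log2 fold change -0.49 ± 0.10 (SE, n = 3 against 3), edgeR adjusted p = 1.03e-04), and HSPA9, the HSP70 of the matrix, fell by 0.33. LY294002 replicate 3 was the highest of its group for HSPD1 and HSPE1. HSPD1 (ENSG00000144381, chr2:197486581-197516737, minus strand) and HSPE1 (ENSG00000115541, chr2:197499994-197503457, plus strand) have overlapping annotated spans on opposite strands. Whether the counting used strand is not given in the sources used here, so the split of reads between them is uncertain. The HSPE1 count was 22.4 ± 2.68% of the HSPD1 count in vehicle and 21.8 ± 1.04% with LY294002 (SD, n = 3). SERPINH1 (HSP47), the collagen chaperone of the endoplasmic reticulum, fell by 0.36.

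Of the 8 TRiC subunits 6 fell under LY294002. TCP1 fell by 0.37, CCT5 by 0.35, CCT6A by 0.27, CCT8 by 0.21, CCT2 by 0.20 and CCT4 by 0.16 on the log2 scale, while CCT3 and CCT7 had log2 fold changes of -0.11 and -0.074 and did not pass. The 8 subunits sit in the ring in equal number, so their shares of the summed TRiC count were followed. TCP1 made up 11.1% of that sum in vehicle, 10.5% with wortmannin and 9.99% with LY294002, and CCT5 made up 19.9%, 19.3% and 18.3%, while CCT7 made up 13.5%, 13.7% and 14.9%. The CCT4 call was lost without vehicle replicate 1, at -0.11. Leaving out each library of the 2 groups in turn kept 23 of the 27 calls, the 4 exceptions being HSPA1B, HSPA4, BAG3 and CCT4. For HSPA4, an HSP110 relative with a log2 fold change of -0.12, the libraries whose removal ended the call were vehicle replicate 1, vehicle replicate 2 and LY294002 replicate 2, with values of -0.10, -0.11 and -0.10.

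Grouped by promoter letters, 7 of the 8 genes with the 13 letters fell under LY294002, with a median log2 fold change of -0.41, the exception being DNAJB6. Of the 11 tested genes with only an 8-letter match, 8 fell and 2 rose, with a median of -0.27, and of the 12 with neither, 8 fell, with a median of -0.22. Under wortmannin the genes that fell numbered 4 of 8, 4 of 11 and 4 of 12 in the same order, with medians of -0.10, -0.090 and -0.11. With Poria at 500 µg/mL the genes that rose numbered 5 of 8, 6 of 11 and 7 of 12, with medians of 0.16, 0.16 and 0.20. These shares and medians describe the genes with a window and were not tested. Of the 4 tested genes without a window 2 fell under LY294002, with a median of -0.17, and FKBP4 had the lowest value, -0.74. A window without a match says nothing of letters outside it. HSPE1 counts as having neither, although the stretch printed for HSPD1 lies close to its window (chr2:197500129-197500428).

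Wortmannin lowered 14 of the 35 genes, against 13.7% of all tested genes that changed in either direction (7.46% fell and 6.26% rose). The number that rose was 0 by edgeR, 0 at an unadjusted p below 0.05 and 0 by DESeq2, which also called 14 genes lower. HSPB1 stood at 109, 129 and 143 CPM against 149, 163 and 189.8 CPM in vehicle (log2 fold change -0.39 ± 0.10 (SE, n = 3 against 3), edgeR adjusted p = 0.00435), and this call was lost without vehicle replicate 3 or wortmannin replicate 1, where its value was -0.29 and -0.30. CHORDC1, a zinc-binding co-chaperone of HSP90, fell from 75.3, 79.1 and 79.5 CPM to 62.9, 63.2 and 61.6 CPM (log2 fold change -0.32 ± 0.048 (SE, n = 3 against 3), edgeR adjusted p = 2.58e-06). FKBP4 fell to 170.0, 175 and 196 CPM (log2 fold change -0.30 ± 0.037 (SE, n = 3 against 3), edgeR adjusted p = 2.65e-08) and HSPH1 to 389, 387 and 411 CPM (log2 fold change -0.29 ± 0.042 (SE, n = 3 against 3), edgeR adjusted p = 9.18e-07). HSPA4L fell to 75.1, 71.6 and 80.9 CPM (log2 fold change -0.26 ± 0.051 (SE, n = 3 against 3), edgeR adjusted p = 2.01e-04). In each of these 5 genes all wortmannin libraries lay below all vehicle libraries, by the same rule for naming them. They also lay above all LY294002 libraries, which the rule did not use.

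Both HSP90 genes fell with wortmannin, HSP90AA1 to 991, 942 and 986 CPM (log2 fold change -0.24 ± 0.034 (SE, n = 3 against 3), edgeR adjusted p = 1.03e-06) and HSP90AB1 by 0.093. The co-chaperones STIP1, AHSA1 and PTGES3 fell by 0.22, 0.15 and 0.14, HSPD1 by 0.25, and the TRiC subunits TCP1, CCT5 and CCT6A by 0.18, 0.15 and 0.10. No HSP70 or J-domain gene passed. HSPA1A stood at 279.8, 284 and 301 CPM, just above every vehicle library (log2 fold change 0.072 ± 0.054 (SE), edgeR adjusted p = 0.433), and the sum of HSPA1A and HSPA1B differed by 0.046 (edgeR adjusted p = 0.612). HSF1, BAG3, DNAJB1 and HSPE1 had log2 fold changes of -0.077, -0.17, -0.034 and -0.24 with adjusted p-values of 0.385, 0.270, 0.629 and 0.108. Without vehicle replicate 1 the number that fell was 8, and the calls lost were those of HSP90AB1, AHSA1, PTGES3 and the 3 TRiC subunits. Leaving out each library in turn kept 7 of the 14, namely HSPA4L, HSPH1, HSP90AA1, STIP1, FKBP4, CHORDC1 and HSPD1.

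Compared directly at the same 10 µM, 19 genes were higher with wortmannin than with LY294002 and 2 were lower, against 22.2% of all tested genes that differed (12.7% higher and 9.49% lower). The difference was widest for HSPH1 (log2 fold change 0.49 ± 0.042 (SE, n = 3 against 3), edgeR adjusted p = 9.31e-13), FKBP4 (log2 fold change 0.44 ± 0.037 (SE, n = 3 against 3), edgeR adjusted p = 7.77e-13) and HSPB1 (log2 fold change 0.39 ± 0.10 (SE, n = 3 against 3), edgeR adjusted p = 0.00322), with HSPA8 next at 2495, 2537 and 2833 CPM against 2085, 2111 and 1815 CPM (log2 fold change 0.39 ± 0.047 (SE, n = 3 against 3), edgeR adjusted p = 1.04e-08). The 2 genes that were lower were HSPA1A (log2 fold change -0.31 ± 0.054 (SE, n = 3 against 3), edgeR adjusted p = 2.18e-05) and HSPA1B (log2 fold change -0.21, edgeR adjusted p = 0.0150). HSPA1B lost this call without wortmannin replicate 2, wortmannin replicate 3 or LY294002 replicate 3, and HSPB1 lost its call without wortmannin replicate 3, at 0.30. DNAJB1 and DNAJA1 were higher with wortmannin by 0.24 and 0.24, HSPA9 by 0.24, SERPINH1 by 0.25, and TCP1, CCT5, CCT6A and CCT8 by 0.19, 0.20, 0.17 and 0.14. Of the 21 calls 15 held whichever 1 library was left out, and the exceptions were HSPA1B, AHSA1, STIP1, CHORDC1, HSPB1 and CCT8. For BAG3, HSPE1 and HSF1 the difference was 0.13 ± 0.10, 0.25 ± 0.10 and 0.0027 ± 0.053 (SE), and none of these 3 passed.

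The 2 cytosolic HSP90 genes did not fall in proportion. HSP90AA1 made up 37.4, 37.8 and 37.8% of the summed HSP90AA1 and HSP90AB1 count in the vehicle libraries, 35.5, 34.9 and 35.5% with wortmannin and 34.0, 34.5 and 33.2% with LY294002. The 3 groups did not overlap. The extract groups had means from 37.2% (Angelicae 20) to 39.4% (Glycyrrhizae 500), with Poria 500 at 39.2 ± 0.543% (SD, n = 3).

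**Figure D3:**
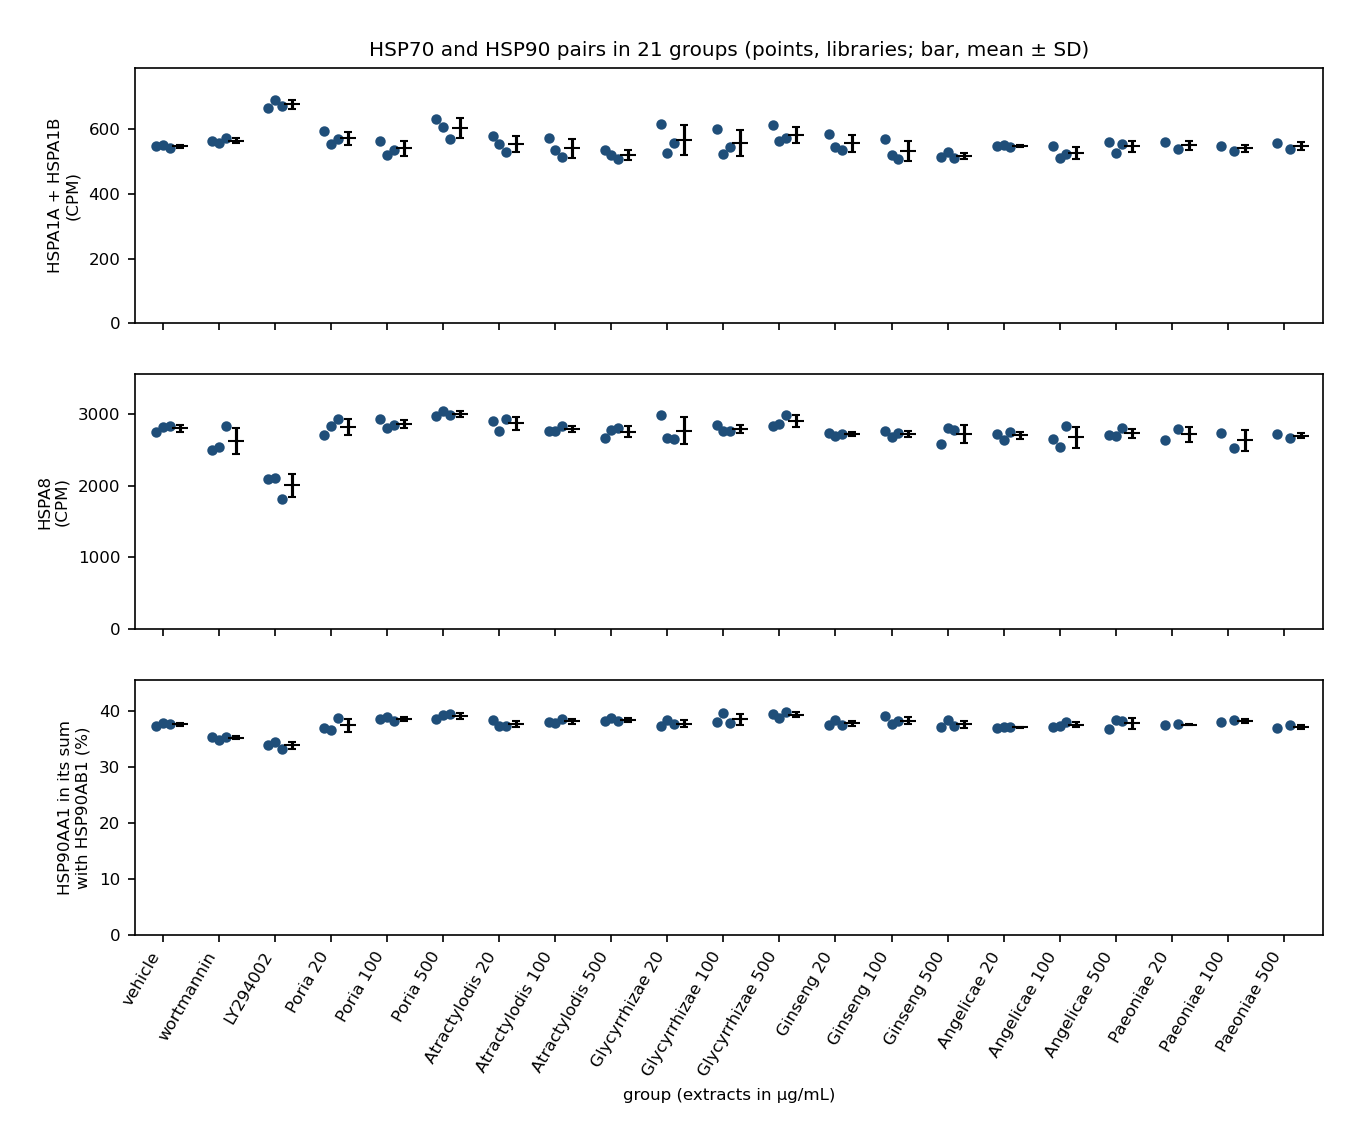
Summed HSPA1A and HSPA1B CPM (top), HSPA8 CPM (middle) and the percentage of HSP90AA1 in its sum with HSP90AB1 (bottom) in every library of the 21 groups (points) with mean ± SD (bars), all y axes from 0. The LY294002 libraries are the highest in the top panel and the lowest in the other two.

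Other genes of the same machinery were counted from lists made by role, to be read against the shares of all tested genes, 20.5% that fell and 18.7% that rose under LY294002, and 7.46% and 6.26% under wortmannin. Of 14 tested further targets of HSF1, 7 fell and 1 rose under LY294002 (median log2 fold change -0.28) and 4 fell under wortmannin (median -0.13). CACYBP, a co-chaperone-like ubiquitin ligase adaptor, had means of 112, 99.0 and 78.6 CPM in vehicle, wortmannin and LY294002, and fell by 0.51 under LY294002. The J-domain gene DNAJA4 fell by 0.45, and IER5, an immediate early gene, rose by 0.42. ZFAND2A (AIRAP) fell by 0.46 under wortmannin and by 0.40 under LY294002. Of 22 other cytosolic co-chaperones, 10 fell and 3 rose under LY294002, the risen ones being a smaller share than over all genes. The largest changes were those of HSPA14, a ribosome-associated HSP70, at -0.53, DNAJC2, its ribosomal partner, at -0.47, and UNC45A, a myosin chaperone, at 0.46. Under wortmannin 3 of the 22 changed, all lower (DNAJC2, BAG2 and HSPA14), a share near the 13.7% of all tested genes that changed. Of 12 other mitochondrial chaperones and proteases, 7 fell under LY294002, among them the protease CLPP at -0.52 and the import factor TIMM44 at -0.42, and 3 fell under wortmannin.

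The chaperones of the endoplasmic reticulum, where secreted proteins fold, fell with both inhibitors: 9 of 12 with wortmannin and 10 of 12 with LY294002, with median log2 fold changes of -0.25 and -0.30. HSP90B1 (GRP94), the HSP90 of that compartment, had means of 719.9, 540.4 and 529 CPM in vehicle, wortmannin and LY294002, with log2 fold changes of -0.41 and -0.44. CALR, a glycoprotein chaperone, fell by 0.34 under wortmannin. Among 13 actin and tubulin genes, whose products TRiC folds, 6 fell and 1 rose under wortmannin and 7 fell under LY294002. TUBA1B, the main alpha-tubulin gene here, had means of 1961, 1417 and 989 CPM, with log2 fold changes of -0.47 and -0.99, while TUBA1A, a low gene at 3.00 CPM in vehicle, rose by 0.80 under wortmannin. Of 13 prefoldin and tubulin cofactor genes, which hand clients to TRiC, 5 fell and 3 rose under LY294002 and 2 fell under wortmannin, the 3 and the 2 being near the shares of all tested genes that rose under LY294002 (18.7%) and changed under wortmannin (13.7%). Of the 9 colon epithelial markers 7 rose and 1 fell under LY294002, and 4 rose under wortmannin; their part in the results was not tested. In bulk RNA, a change in the number of cells of one kind and a change in RNA per cell cannot be told apart.

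With Poria at 500 µg/mL the set was higher than in vehicle: 20 of the 35 genes rose and 1 fell, against 7.49% of all tested genes that changed in either direction (4.60% rose and 2.89% fell). HSP90AA1 stood at 1363, 1351 and 1385 CPM against 1164, 1169 and 1117 CPM (log2 fold change 0.25 ± 0.034 (SE, n = 3 against 3), edgeR adjusted p = 1.80e-06), and FKBP4 at 269, 265 and 261 CPM against 223, 226 and 219 CPM (log2 fold change 0.25 ± 0.037 (SE, n = 3 against 3), edgeR adjusted p = 4.62e-06). TCP1, the alpha subunit of TRiC, stood at 355, 335 and 340.4 CPM against 308, 283 and 271 CPM (log2 fold change 0.26 ± 0.048 (SE, n = 3 against 3), edgeR adjusted p = 2.61e-04), and HSPD1 at 1227, 1103 and 1216 CPM against 1057, 1000.0 and 911 CPM (log2 fold change 0.26 ± 0.054 (SE, n = 3 against 3), edgeR adjusted p = 0.00130). In these 4 genes the groups did not overlap, which was part of the rule for naming them. HSPB1 was the gene that fell, at 129, 143 and 118 CPM against 149, 163 and 189.8 CPM (log2 fold change -0.36 ± 0.10 (SE, n = 3 against 3), edgeR adjusted p = 0.0165), and its call was lost without vehicle replicate 3, Poria 500 replicate 1 or Poria 500 replicate 3, with values of -0.26, -0.35 and -0.30.

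All 8 TRiC subunits rose with Poria at 500 µg/mL, by 0.17 (CCT4) to 0.26 (TCP1) on the log2 scale, and so did both HSP90 genes. Of the 6 genes listed as HSP90 co-chaperones, ST13 included, 4 rose, with AHSA1 at 0.23, PTGES3 at 0.21 and CHORDC1 at 0.16 beside FKBP4. HSPH1 rose by 0.20, HSPA4L by 0.17, DNAJA1 by 0.19, DNAJB1 by 0.13 and HSPA9 by 0.23. The inducible HSP70 genes did not pass: HSPA1A stood at 310.2, 305 and 278 CPM (log2 fold change 0.12, edgeR adjusted p = 0.186) and HSPA1B at 321, 303 and 293 CPM (0.16, adjusted p = 0.123), and their sum gave 0.14 (adjusted p = 0.0734). HSF1, BAG3 and HSPE1 had log2 fold changes of 0.060, 0.070 and 0.28 with adjusted p-values of 0.556, 0.740 and 0.0763. Without vehicle replicate 3 the number that changed was 13, all of them higher, and without both that library and Poria 500 replicate 1, an alternative chosen after seeing the data, it was 6. Of the 21 calls 12 held whichever 1 library was left out, and the exceptions were HSPA4L, DNAJA1, DNAJB1, PTGES3, CHORDC1, HSPB1, CCT3, CCT4 and CCT7. The share of mitochondrially encoded counts was 9.96% ± 1.38 in vehicle and 7.77% ± 0.446 with Poria at 500 µg/mL (SD, n = 3), and with those genes left out of the fit the set again had 21 genes that passed. That refit removes only those genes from the counts. What the difference in their share reflects was not tested.

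The vehicle libraries are not part of the comparison of the highest with the lowest Poria dose, in which 16 genes rose, against 5.51% of all tested genes that changed in either direction (3.21% rose and 2.30% fell). The number that fell was 0, and 1 gene was lower at an unadjusted p below 0.05; DESeq2 called 18 genes, all of them higher. HSP90AA1 stood at 1158, 1115 and 1194 CPM at 20 µg/mL, 1270.1, 1198 and 1217 CPM at 100 µg/mL and 1363, 1351 and 1385 CPM at 500 µg/mL (log2 fold change 0.24 ± 0.034 (SE, n = 3 against 3), edgeR adjusted p = 4.96e-06 for 500 against 20). FKBP4 stood at 234, 216 and 227 CPM, 230.2, 232 and 233 CPM and 269, 265 and 261 CPM (log2 fold change 0.23 ± 0.036 (SE, n = 3 against 3), edgeR adjusted p = 2.66e-05). In both genes the highest dose lay above every library of the lower doses. Separation from the 20 µg/mL libraries was part of the rule for naming them, which did not use the 100 µg/mL libraries. HSPD1 went from 1044, 994 and 988 CPM at the lowest dose to 1227, 1103 and 1216 CPM (log2 fold change 0.23 ± 0.054 (SE, n = 3 against 3), edgeR adjusted p = 0.00516), HSPH1 from 483, 472 and 478 CPM to 567, 544 and 562 CPM (log2 fold change 0.22 ± 0.042 (SE, n = 3 against 3), edgeR adjusted p = 4.13e-04), and CHORDC1 from 78.3, 70.5 and 78.0 CPM to 81.9, 89.3 and 90.8 CPM (log2 fold change 0.21 ± 0.047 (SE, n = 3 against 3), edgeR adjusted p = 0.00346). Of the TRiC subunits TCP1, CCT2, CCT5, CCT6A and CCT8 rose, by 0.14 to 0.18, while CCT3, CCT4 and CCT7 did not pass. The group means ran in the order 20, 100, 500 µg/mL for 25 of the 35 genes. With Glycyrrhizae they did so for 21, Atractylodis 9, Ginseng 10, Angelicae 12 and Paeoniae 9. The share over all tested genes was not counted. Without Poria 500 replicate 1, Poria 20 replicate 2 or Poria 20 replicate 3 the number that rose was 10, 9 and 10, and without replicate 1 of both doses, an alternative chosen after seeing the data, it was 10. Of the 16 calls 7 held whichever 1 library was left out, and the exceptions were HSPA4L, DNAJB1, HSP90AB1, AHSA1, CHORDC1, TCP1, CCT2, CCT6A and CCT8. CHORDC1 lost its call without Poria 20 replicate 2, at 0.16.

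Glycyrrhizae at 500 µg/mL gave 15 genes that rose against vehicle, where 6.91% of all tested genes changed in either direction (3.65% rose and 3.26% fell). The number that fell was 0 by edgeR, 0 at an unadjusted p below 0.05 and 0 by DESeq2, which called 17 higher. TCP1 stood at 340.1, 347 and 323 CPM (log2 fold change 0.23 ± 0.048 (SE, n = 3 against 3), edgeR adjusted p = 0.00121), CCT4 at 255, 262 and 258 CPM against 236, 224 and 208 CPM in vehicle (log2 fold change 0.21 ± 0.046 (SE, n = 3 against 3), edgeR adjusted p = 0.00171), and AHSA1 at 101, 97.0 and 104 CPM against 86.0, 86.5 and 85.7 CPM (log2 fold change 0.23 ± 0.048 (SE, n = 3 against 3), edgeR adjusted p = 0.00150). FKBP4 stood at 257, 259 and 261 CPM (log2 fold change 0.22 ± 0.037 (SE, n = 3 against 3), edgeR adjusted p = 8.76e-05) and HSP90AA1 at 1367, 1266 and 1329.5 CPM (log2 fold change 0.20 ± 0.034 (SE, n = 3 against 3), edgeR adjusted p = 1.22e-04). None of these 5 overlapped with vehicle, again by the rule for naming them. In all, 7 of the 8 TRiC subunits rose, and CCT2 did not pass. HSPH1, DNAJB1, HSPD1 and HSPA9 rose by 0.15, 0.14, 0.18 and 0.16. HSPA1A, HSPA1B, BAG3, HSPE1 and HSF1 had log2 fold changes of 0.091, 0.089, 0.029, 0.22 and -0.038 and did not pass. The number that rose was 7 without vehicle replicate 3 and 9 without Glycyrrhizae 500 replicate 1. Of the 15 calls 7 held whichever 1 library was left out, and the exceptions were HSPH1, DNAJB1, PTGES3, HSPD1, HSPA9, CCT3, CCT7 and CCT8. Of the 12 chaperones of the endoplasmic reticulum 9 rose with Glycyrrhizae at 500 µg/mL against vehicle and 8 from its lowest to its highest dose, and with Poria 5 and 4 did.

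Within the Glycyrrhizae series 4 genes rose from 20 to 500 µg/mL, against 3.85% of all tested genes that changed (1.83% rose and 2.02% fell), and the number that fell was 0 by edgeR, 0 at an unadjusted p below 0.05 and 0 by DESeq2. The 4 were all HSP90 or HSP110 machinery. CHORDC1 stood at 75.1, 75.3 and 75.0 CPM at 20 µg/mL and 83.7, 86.2 and 87.6 CPM at 500 µg/mL (log2 fold change 0.19 ± 0.047 (SE, n = 3 against 3), edgeR adjusted p = 0.0116), and HSP90AA1 at 1199, 1205 and 1157 CPM and 1367, 1266 and 1329.5 CPM (log2 fold change 0.15 ± 0.034 (SE, n = 3 against 3), edgeR adjusted p = 0.00512). HSPH1 stood at 519, 480.0 and 459 CPM and 551, 526 and 537 CPM (log2 fold change 0.15 ± 0.042 (SE, n = 3 against 3), edgeR adjusted p = 0.0336), and FKBP4 at 244, 235 and 229 CPM and 257, 259 and 261 CPM (log2 fold change 0.13 ± 0.036 (SE, n = 3 against 3), edgeR adjusted p = 0.0263). The doses did not overlap in any of the 4, again by the rule for naming them. Each call was lost without at least 1 library, and without Glycyrrhizae 20 replicate 3 the number was 0, with log2 fold changes of 0.19, 0.14, 0.11 and 0.11 for CHORDC1, HSP90AA1, HSPH1 and FKBP4; without Glycyrrhizae 500 replicate 1, Glycyrrhizae 20 replicate 2 or Glycyrrhizae 500 replicate 3 it was 1, 2 and 1. Without replicate 1 of both doses, also chosen after seeing the data, it was 3, and HSP90AA1 lost its call, at 0.14. No TRiC subunit passed in this comparison, with log2 fold changes of -0.0071 to 0.071, and at 100 µg/mL against vehicle 1 gene, CCT4, rose by 0.21 (edgeR adjusted p = 0.0181), against 0.340% of all tested genes. Of the 6 fits with 1 library left out, 5 lost that call, the exception being the fit without vehicle replicate 1, and DESeq2 kept it, with 7 genes of the set called.

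**Figure D4:**
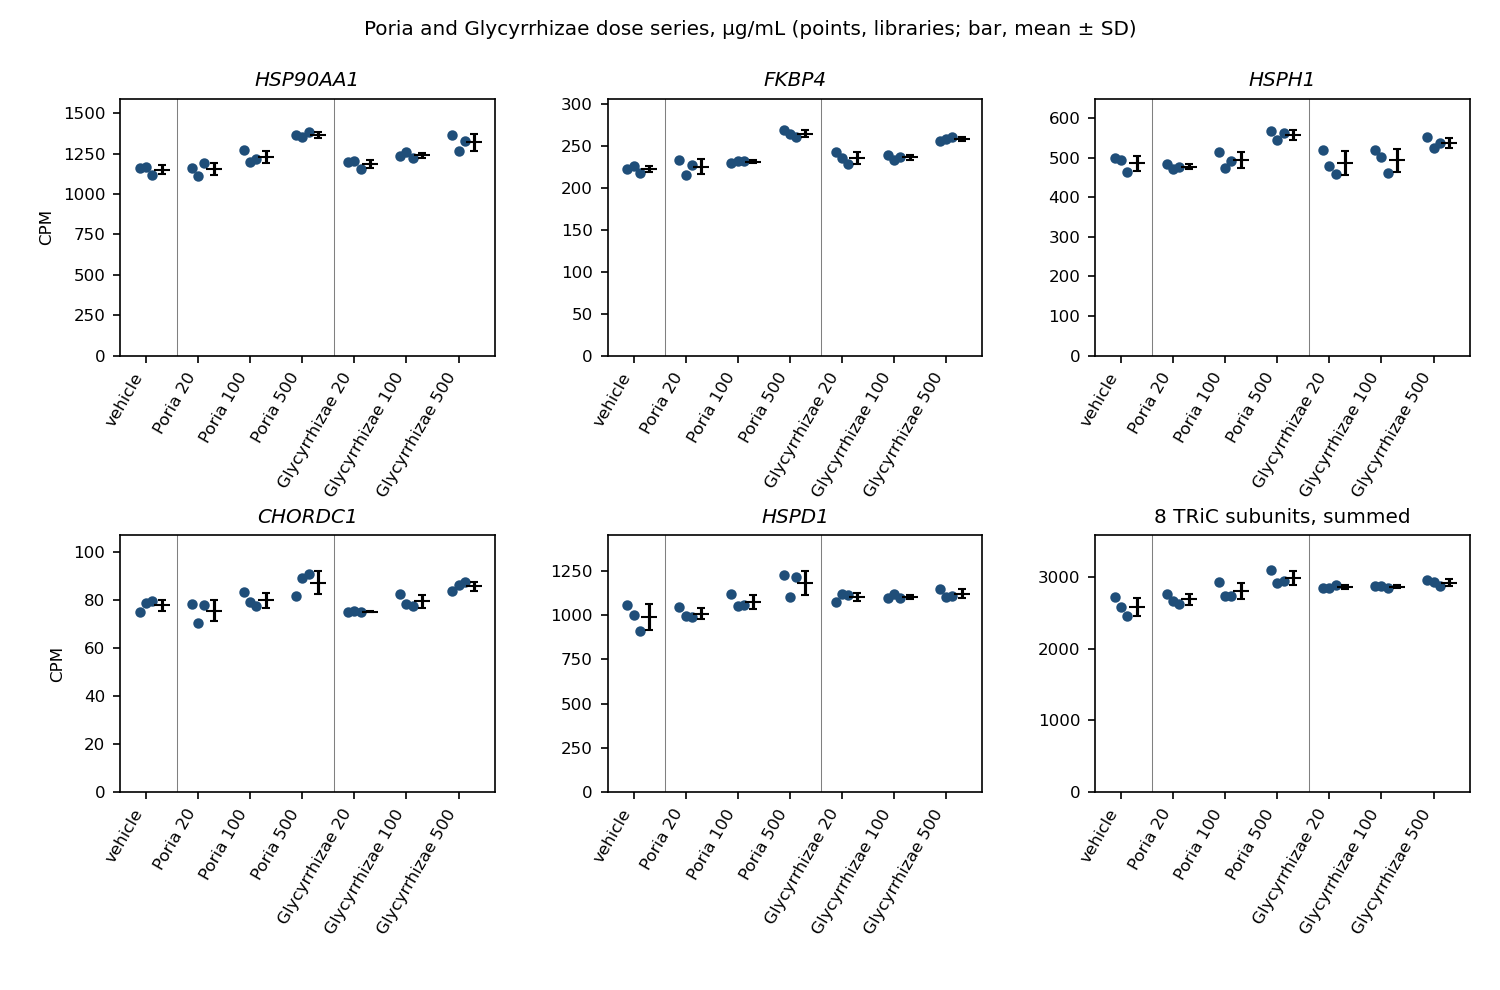
CPM (y axes, from 0) of HSP90AA1, FKBP4, HSPH1, CHORDC1, HSPD1 and the summed TRiC subunits in vehicle and in the Poria and Glycyrrhizae groups at 20, 100 and 500 µg/mL; points are libraries and bars are mean ± SD. HSP90AA1 and FKBP4 are highest at 500 µg/mL of each extract, and summed TRiC climbs with the Poria dose while all 3 Glycyrrhizae doses lie near each other.

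The TRiC subunits were followed as a sum over all groups. The vehicle libraries held 2721, 2587 and 2467 summed CPM in replicates 1 to 3, wortmannin 2509, 2365 and 2365 and LY294002 2140.5, 2172 and 2346. The 51 extract libraries ran from 2616 to 3106 with a median of 2830.1, and 45 of them lay above every vehicle library. The lowest extract mean was that of Poria at 20 µg/mL, 2693 ± 73.3, and the highest that of Poria at 500 µg/mL, 2993 ± 98.2 (SD, n = 3). Poria at 100 µg/mL had 2805 ± 111. Glycyrrhizae had 2864 ± 25.5, 2869.8 ± 18.5 and 2927 ± 46.9 at 20, 100 and 500 µg/mL, so that its lowest dose was already above vehicle by more than the vehicle spread of 127 (SD, n = 3). In each of the 18 extract groups all 8 subunit means were above the vehicle mean. All of these groups and libraries were set against the same 3 vehicle libraries, so the counts are not separate observations. How many of all tested genes lay above vehicle in all 18 groups was not counted. Extracts and vehicle carry different first digits in their sample codes, and the letter A and a recorded DMSO share are found with vehicle alone. For this level the extracts cannot be told apart from the digit, the letter or a difference in solvent.

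**Figure D5:**
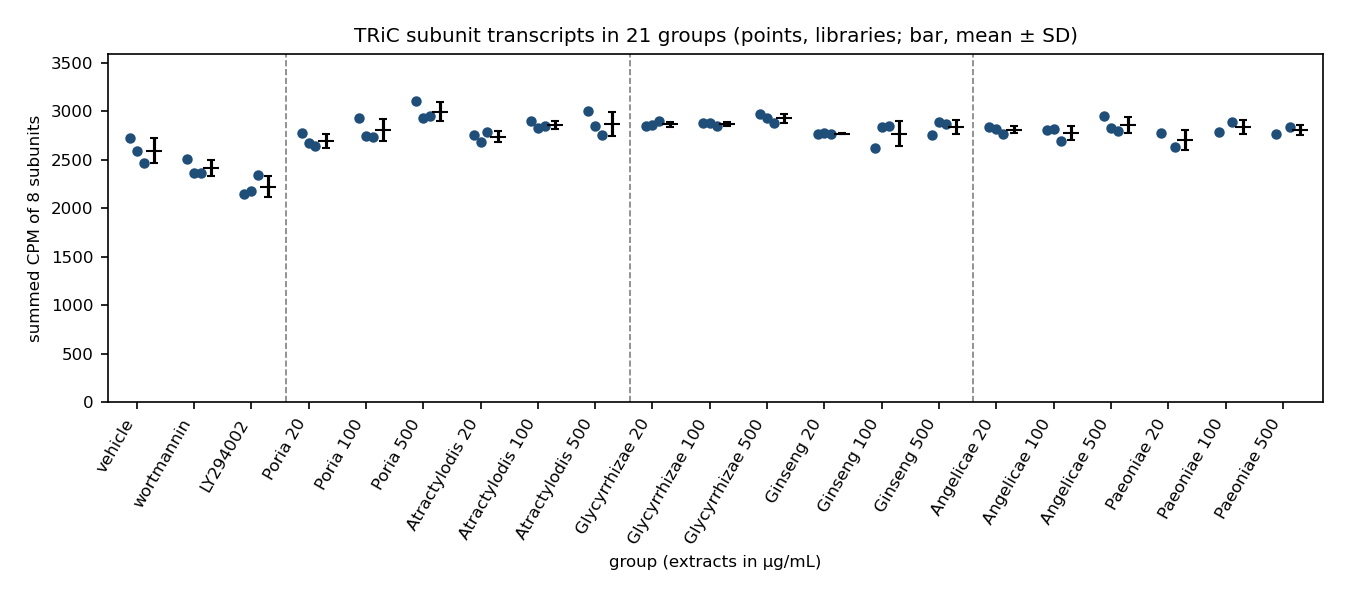
Summed CPM of the 8 TRiC subunits (y axis, from 0) in every library of the 21 groups (points) with mean ± SD (bars); dashed lines part the groups by the first digit of the sample code. Of the 51 extract libraries 45 lie above every vehicle library, and LY294002 has the lowest mean.

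The other 15 extract-to-vehicle comparisons had 0 genes of the set past the edgeR threshold. All tested genes that passed were 0.0417% and 0% for Poria at 100 and 20 µg/mL, 0.250%, 0.364% and 0.137% for Atractylodis at 500, 100 and 20 µg/mL, and 0.370% for Glycyrrhizae at 20 µg/mL. They were 0.352%, 0% and 0% for Ginseng, 0.161%, 0.00596% and 0.173% for Angelicae, and 0.161%, 0.0477% and 0% for Paeoniae, each at 500, 100 and 20 µg/mL. The number with an unadjusted p below 0.05 ran from 0 for Poria 20 to 18 for Glycyrrhizae 20, and that by DESeq2 from 0 to 6. DESeq2 also called more of all genes fitted than edgeR did in each comparison where it called genes of the set: 1.52% for Angelicae 500, 2.55% for Glycyrrhizae 20, 0.674% for Atractylodis 500, 2.64% for Angelicae 20, 0.65% for Atractylodis 100, 1.35% for Ginseng 500, 0.99% for Paeoniae 100 and 0.435% for Paeoniae 500. Of the set it called 6 for Angelicae 500 (CCT3, CCT4, CCT6A, CCT7, HSPD1 and TCP1), 5 for Glycyrrhizae 20, 4 each for Atractylodis 500 and Angelicae 20, 3 each for Atractylodis 100 and Ginseng 500, 2 for Paeoniae 100 and 1 for Paeoniae 500. Of these 28 calls 25 were TRiC subunits, the others being HSPD1 and, for Paeoniae at both doses, HSPB1, which was lower. All of these comparisons used the same vehicle libraries, so the calls are not independent of each other.

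Between 500 and 20 µg/mL, 0 genes of the set passed for Atractylodis, Ginseng, Angelicae and Paeoniae by edgeR and by DESeq2, where 0%, 0%, 0.0179% and 0.0358% of all tested genes passed, and 1, 0, 2 and 1 genes had an unadjusted p below 0.05. Whether the dose effect itself differed between 2 extracts with the same first code digit was tested as a difference of differences. For HSP90AA1 the rise from 20 to 500 µg/mL was larger with Poria, from 1156 ± 39.7 to 1366 ± 16.9 CPM, than with Atractylodis, from 1181 ± 53.8 to 1218 ± 24.1 CPM (SD, n = 3), by 0.20 ± 0.049 on the log2 scale (SE; edgeR adjusted p = 0.0490). It was the 1 gene of the set that passed, against 0.394% of all tested genes, and it did not pass when 10 of the 12 libraries were left out one at a time. For Glycyrrhizae against Ginseng 0 genes passed by edgeR and by DESeq2, with 5 at an unadjusted p below 0.05 and 0.0477% of all genes past the threshold, and for Angelicae against Paeoniae 0 passed by either tool, with 0 at an unadjusted p below 0.05 and 0% of all genes.

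HSPB1, which counters aggregation of unfolded proteins, had its highest group mean in vehicle, at 167 ± 20.9 CPM (SD, n = 3), of which replicate 3 was the highest of all 60 libraries at 189.8 CPM. The 18 extract group means ran from 123 CPM (Paeoniae 500, n = 2) to 156 CPM (Poria 20), and 17 of the 18 did not pass against vehicle by edgeR, with values of -0.44 to -0.096 on the log2 scale. LY294002 had the lowest mean, 96.9 ± 10.5 CPM. Within the Poria series the libraries stood at 152, 149.7 and 167 CPM at 20 µg/mL, 137, 136 and 136 CPM at 100 µg/mL and 129, 143 and 118 CPM at 500 µg/mL. The highest and the lowest dose did not overlap, but the difference did not pass (log2 fold change -0.27 ± 0.10 (SE), edgeR adjusted p = 0.109), so the fall against vehicle was not matched by a call between doses. Within the Glycyrrhizae series the 500 µg/mL mean was the highest of the 3 doses, at 155 ± 6.28 CPM against 138 ± 11.9 CPM at 20 µg/mL.

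The 2 transcription factors varied little between groups. HSF1 (ENSG00000185122, chr8:144291591-144314722, plus strand) ran from 99.3 CPM in LY294002 to 109 CPM with Poria at 500 µg/mL as group means, a ratio of 1.10, and HSF2 from 14.3 CPM (Glycyrrhizae 100) to 16.5 CPM (Ginseng 100), a ratio of 1.15. Neither gene passed in any of the 30 comparisons. The transcript level of a factor does not measure its activity, which is set largely at the protein.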

How the data were processed

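Expected counts per gene were deposited by the authors and, per the submitters' processing notes, tools named there are FastQC 0.11.9, Trim Galore 0.6.5, STAR 2.7.3a and RSEM 1.3.3, with GRCh38. The sources used here do not give the annotation release or strand setting of the counting. Of 273 columns 60 matched a sample analysed here by name and 213 were not used. Gene symbols and GRCh38 positions came from GENCODE release 29. Counts were rounded and filtered (edgeR's filterByExpr, minimum count 10, minimum total 15), and 16767 genes were fitted with edgeR 4.0.16 (R 4.3.3) in 1 quasi-likelihood model of 21 group means with TMM scaling and 39 residual degrees of freedom. The SE of a log2 fold change is its absolute value divided by the square root of the test's F value. It thus rests on the spread over all 21 groups, not on the compared groups alone. Benjamini-Hochberg adjustment ran over all genes tested, separately in each of 30 comparisons. Totals of 20431980 to 35477712 left HSPB8 alone of the 36 genes too low to test. Alternatives were DESeq2 1.42.0, its size factors, no filter, the compared groups alone, a replicate block, HSPA1A and HSPA1B summed, and each library left out; chosen after seeing the data were the removal of mitochondrially encoded genes, and of replicate 3 of LY294002 and vehicle, vehicle replicate 3 with Poria 500 replicate 1, or replicate 1 of both doses together. The code was tested on simulated data. For each inhibitor comparison and each comparison of an extract's highest dose, up to 5 called genes with the largest change and no overlap of libraries are given in full, HSPA1A, HSPA1B, DNAJB1, HSPH1, BAG3, HSP90AA1, HSF1, HSPD1 and HSPE1 are always described, and up to 4 genes per role and 3 per further list are named. The genes and lists were chosen with earlier results of these data known.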

Additional observations from a re-analysis of the deposited data

Results flagged for a closer look

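The dose effect of HSP90AA1 differed between Poria and Atractylodis, 2 extracts with the same first digit in their sample codes. The change from 20 to 500 µg/mL was larger with Poria by 0.20 on the log2 scale (edgeR adjusted p = 0.0490), and it did not pass when 10 of the 12 libraries were left out one at a time, with values from 0.16 to 0.23.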

How the results depend on the processing

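Over all alternatives, 325 of 405 counts of genes per comparison stayed within 1.5 times the count given, 80 did not, and of 1630 values for called genes 1380 kept their direction and call, 250 lost the call and 0 changed direction. Counts of 0 that stayed at 0 are among the 325, so that number does not measure how well the calls held. Calls kept in every alternative were 22 of 27 for LY294002, 6 of 14 for wortmannin and 9 of 21 for wortmannin against LY294002. They were 3 of 21 for Poria 500, 6 of 15 for Glycyrrhizae 500, 3 of 16 for Poria 500 against 20 and 0 of 4 for Glycyrrhizae 500 against 20. With 1 library left out, the genes called numbered 8 to 14 for wortmannin (8 without vehicle replicate 1), 25 to 28 for LY294002, 17 to 20 for wortmannin against LY294002, 13 to 19 for Poria 500 (13 without vehicle replicate 3), 7 to 17 for Glycyrrhizae 500 (7 without vehicle replicate 3), 9 to 17 for Poria 500 against 20 (9 without Poria 20 replicate 2) and 0 to 4 for Glycyrrhizae 500 against 20. They numbered 0 to 4 for Glycyrrhizae 100 (4 without vehicle replicate 1), 0 to 8 for Glycyrrhizae 20, 0 to 3 for Atractylodis 500, Atractylodis 100 and Angelicae 500, 0 to 2 for Ginseng 500, and 0 to 1 for Ginseng 100, Paeoniae 500 and the dose differences of Poria from Atractylodis and of Glycyrrhizae from Ginseng. Fitting only the groups compared, which leaves fewer samples to estimate the spread, gave 8 for wortmannin, 9 for wortmannin against LY294002, 4 for Poria 500, 8 for Glycyrrhizae 500, 2 for Angelicae 20, 3 for Poria 500 against 20, 1 for Glycyrrhizae 500 against 20 and 0 for Poria less Atractylodis. Without a filter on low counts the numbers were 6, 4 and 1 for Atractylodis 500, 100 and 20, 8 and 7 for Glycyrrhizae 100 and 20, 4, 1 and 3 for Ginseng, 6, 2 and 5 for Angelicae, 1, 2 and 1 for Paeoniae, 1 for Poria 100, 2 for Glycyrrhizae 500 against 20 and 0 for Poria less Atractylodis; the cause was not tested. DESeq2 gave 4 and 3 for Atractylodis 500 and 100, 7 and 5 for Glycyrrhizae 100 and 20, 3 for Ginseng 500, 6 and 4 for Angelicae 500 and 20, 1 and 2 for Paeoniae 500 and 100, and 2 for Poria less Atractylodis; the cause was not tested. Without vehicle replicate 3 and Poria 500 replicate 1 together, chosen after seeing the data, Poria 500 gave 6, and without replicate 1 of both doses, likewise chosen, Poria 500 against 20 gave 10.

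Groups share replicate numbers, and the labels do not say what the numbers mark. The samples were not treated as paired: pair correlations of deviations ran from -0.163 to 0.133, in 0 of 27 comparisons was every pair above 0.1, and in 3 of 23 comparisons of 3 against 3 every sample correlated best with its own number. Replicates 2 and 3 were nonetheless the closest pair in 15 of 15 extract groups of 3, and replicates 1 and 2 in 3 of 3 vehicle and inhibitor groups, so the number may mark something shared. A fit with a replicate block gave 14 genes for wortmannin, 27 for LY294002, 23 for wortmannin against LY294002, 24 for Poria 500, 18 for Glycyrrhizae 500, 17 for Poria 500 against 20 and 4 for Glycyrrhizae 500 against 20. It moved the count to 2 for Atractylodis 100, 6 for Glycyrrhizae 100, 3 for Glycyrrhizae 20, 1 for Ginseng 500, 2 for Angelicae 500, 1 for Angelicae 20 and 2 for Poria less Atractylodis.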
